A study of Homo sapiens with 6 samples.

Results

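Peaks of the transcription factor E2F1 and of the repressive histone mark H3K27me3 were examined at 9 genes of MHC class I antigen presentation in MDA-MB-231, a long-established line from a human triple-negative breast tumour. The 9 were HLA-B, HLA-C, HLA-E, HLA-F, B2M, TAP1, TAP2, TAPBP and NLRC5, which are 9 of the 19970 protein-coding genes that GENCODE release 44 places on the autosomes and X. They were selected on what is known of them, as class I genes that EZH2 represses in tumours, and on 1 measured value, an H3K27me3 region upstream of HLA-C that was listed in the control and not after E2F1 knockdown. Changes in H3K27me3 between these libraries are therefore described without a test. The choice was also made with earlier results of these data known.

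Chromatin immunoprecipitation sequencing (ChIP-seq), which reads the DNA that an antibody pulls down with its target, gave 5 peak lists of 1 library each. The E2F1 libraries came from untreated cells, from cells exposed for 72 h to the solvent DMSO, and from cells exposed for 72 h to 1 µM GSK126, an inhibitor of the methyltransferase activity of EZH2. H3K27me3 was profiled in cells transduced for 24 h with a lentivirus, carrying either a control shRNA or shE2F1, which targets E2F1 transcripts, and then selected for 72 h in puromycin at 2 µg/ml. No condition has a replicate, so no difference between libraries carries a p-value, and all intervals are exact 95% intervals that cover counting error only. The lists hold no RNA and no protein level, so neither the identity of the line nor the loss of E2F1 after shE2F1 was checked here, and no H3K27me3 library of GSK126-treated cells was analysed.

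MHC class I molecules carry peptides from inside the cell to its surface, where cytotoxic T cells and natural killer cells inspect them. HLA-B and HLA-C are classical heavy chains, HLA-E and HLA-F are nonclassical ones, and B2M is the light chain that heavy chains need to fold. TAP1 and TAP2 form the transporter that brings peptides into the endoplasmic reticulum, TAPBP (tapasin) holds an empty class I molecule at that transporter, and NLRC5 is the transactivator that acts at class I promoters. EZH2 is the catalytic subunit of Polycomb repressive complex 2, which writes H3K27me3, and loss of surface class I through this mark is known from several tumour types. E2F1 is a cell cycle transcription factor whose family binds sites such as TTCCCGC, or TTCGCGC, or TTGCCGC, or TTGGCGC.

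The class I promoters are shown first because the results turn on which of them carried an E2F1 peak. RefSeq promoter sequences (GRCh38.p14, 250 bases before to 50 after the start) were at hand for 7 of the 9 genes, the others being HLA-E and NLRC5, and all matched the genome base for base. The stretches below lie outside any annotated untranslated region and are written on the gene's own strand. Capitals mark the letters TGACG (the core of a cyclic AMP response element), CCAAT, GAANNGAAA (a spelling of the interferon response element) and the kappaB consensus, each searched on both strands. They are HLA-C from chr6:31272106-31272342, minus strand, HLA-B from chr6:31357294-31357429, minus strand, then HLA-F from chr6:29723184-29723305, plus strand, and B2M from chr15:44711324-44711508, plus strand.
HLA-C: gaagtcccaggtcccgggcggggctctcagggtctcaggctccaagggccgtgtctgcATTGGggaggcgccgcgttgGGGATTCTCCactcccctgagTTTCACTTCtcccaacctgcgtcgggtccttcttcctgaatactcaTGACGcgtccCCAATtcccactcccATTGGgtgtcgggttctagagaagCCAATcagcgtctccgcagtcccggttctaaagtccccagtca
HLA-B: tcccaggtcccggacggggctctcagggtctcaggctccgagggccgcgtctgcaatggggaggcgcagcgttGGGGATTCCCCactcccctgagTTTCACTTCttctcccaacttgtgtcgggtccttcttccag
HLA-F: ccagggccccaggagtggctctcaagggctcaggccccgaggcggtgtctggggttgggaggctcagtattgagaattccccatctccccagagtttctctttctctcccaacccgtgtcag
B2M: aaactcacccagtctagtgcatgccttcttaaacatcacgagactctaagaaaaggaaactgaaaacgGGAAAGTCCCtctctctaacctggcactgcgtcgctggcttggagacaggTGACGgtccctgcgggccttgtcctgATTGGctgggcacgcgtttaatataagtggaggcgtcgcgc

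The HLA-C stretch holds, in order toward the start site, a CCAAT box 192 bases upstream, a kappaB match 172 bases upstream, a GAANNGAAA match 151 bases upstream, TGACG 105 bases upstream and further CCAAT boxes 95, 80 and 56 bases upstream. HLA-B had a kappaB, a GAANNGAAA, a TGACG and CCAAT matches in that order, with TGACG 106 bases upstream and thus past the end of its printed stretch. HLA-F had CCAAT boxes 82 and 57 bases upstream, also past its stretch, and no match to the other searched patterns. Over the 250 upstream bases HLA-B and HLA-C were 89.0% identical (226 of 254 aligned columns), and HLA-B and HLA-F 80.3% (204 of 254). B2M shared a kappaB match 125 bases, a TGACG 75 bases and a CCAAT box 49 bases upstream. A kappaB match was found in 5 of the 7 promoters (12.7% of 21571 promoters of protein-coding genes), CCAAT in 5 (34.8%), TGACG in 4 (28.0%) and GAANNGAAA in 3 (6.67%). An E2F site was found in 0 of the 7, against 16.3% of all promoters. These are matches of letters within a window of 300 bases and say nothing of binding.

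E2F1 was first examined at the promoters, defined as the 1000 bp on either side of any annotated transcription start site (TSS), with the peak summit inside. The 9 genes had a median of 9 annotated TSSs (3 to 28), against 5 for all protein-coding genes, which gives them wider windows. In untreated cells 0 of the 9 genes had an E2F1 peak, where 5.85% of all protein-coding genes did. In DMSO 3 of 9 did (B2M, TAP1 and TAP2), beside 33.5% of all genes. In GSK126 7 of 9 did, beside 51.5% of all genes, and HLA-B and HLA-C were those without. HLA-E, HLA-F, TAPBP and NLRC5 had a peak in GSK126 and none in DMSO, 4 of 9 genes or 44.4% (13.7% to 78.8%), beside a background of 18.7%. The opposite pattern was seen in 0 of 9, beside 0.796%. Among genes without a DMSO peak, a GSK126 peak was present at 4 of 6 class I genes (22.3% to 95.7%) and at 28.2% of 13272 genes of any kind (27.4% to 29.0%). The interval for the class I genes includes the value for all genes, so with 6 genes no excess could be told from the background.

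**Figure D1:**
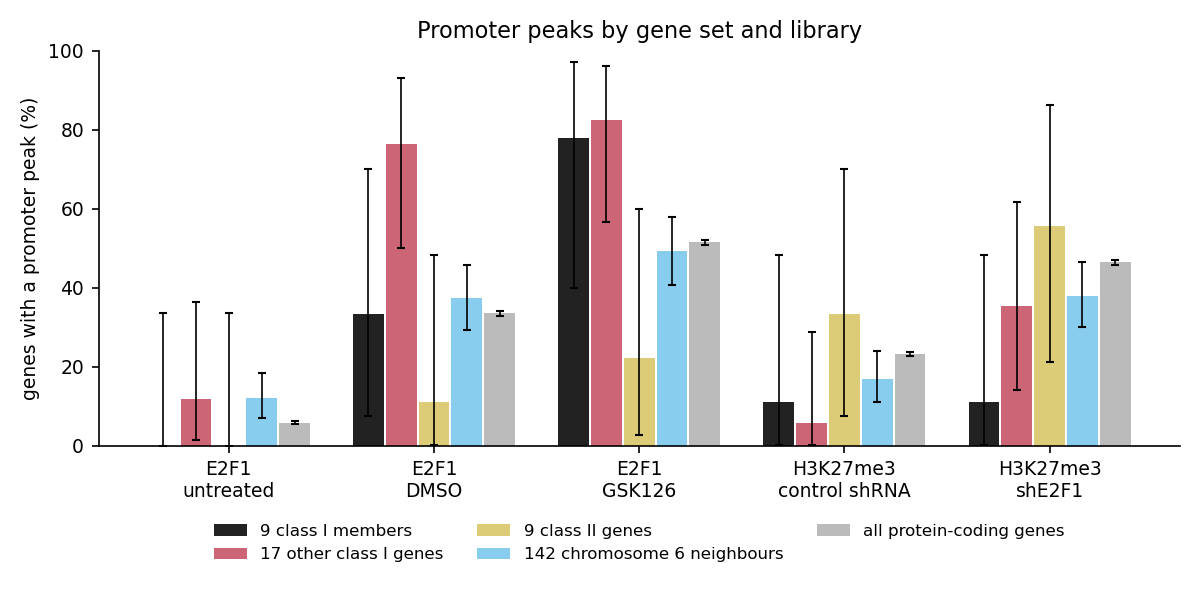
Percent of genes with a promoter peak (vertical axis) in each of the 5 libraries (horizontal axis) for 5 gene sets, with exact 95% intervals as bars. The 9 class I genes stood at 33.3% in DMSO and 77.8% in GSK126 in the E2F1 lists and at 11.1% in both H3K27me3 lists.

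The untreated library was much shallower. Its list holds 1056 peaks, against 15703 in DMSO and 14276 in GSK126. The lowest background of a list, a measure of depth given by the fragments expected anywhere in the genome, was 0.668 fragments in untreated, 1.82 in DMSO and 1.70 in GSK126. The absence of class I genes from the untreated list is thus an absence at that depth. DMSO was 1.07 times as deep as GSK126 on this measure. Over the listed peaks the order was the opposite, with a median background of 2.80 fragments in DMSO and 3.58 in GSK126, and the median fold was 4.57 in DMSO and 6.33 in GSK126. The part of depth and of this overall rise in the GSK126-only peaks of HLA-E, HLA-F, TAPBP and NLRC5 was not tested.

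The light chain gene B2M, on chromosome 15, had the highest fold of the 9 in GSK126. In DMSO it covered chr15:44711200-44711999 with 23 fragments at the summit (14.6 to 34.5) over a background of 3.87, a fold enrichment of 4.93 and a −log10 q of 7.97. In GSK126 it covered chr15:44711400-44712151 with 37 fragments (26.1 to 51.0) over a background of 3.07, fold 9.34 and −log10 q 24.1. Both summits lay in a UTR exon of B2M, 7 and 14 bp downstream of the nearest TSS, so the peak sat at the same place in both lists, downstream of the TGACG and CCAAT matches printed above.

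TAP1 and the immunoproteasome gene PSMB9 are transcribed away from each other, and their E2F1 peak lay nearer to PSMB9. The DMSO peak at chr6:32854049-32854330 had 26 fragments (16.98 to 38.1) and a fold of 3.77, with its summit 307 bp upstream of the nearest TAP1 TSS and 25 bp from a TSS of PSMB9. The GSK126 peak at chr6:32853696-32854422 had 43 fragments (31.1 to 57.9) and a fold of 6.17, with its summit 450 bp upstream of TAP1 and 74 bp from a PSMB9 TSS. A further peak between TAP1 and TAP2 also lay at a TSS of PSMB9, with a fold of 3.82 in DMSO at chr6:32844742-32845145 and of 7.50 in GSK126 at chr6:32843783-32845155. By distance both of these E2F1 peaks were thus nearest to PSMB9. The first also lay within 1000 bp of a TAP1 TSS. The further one was 3316 bp (DMSO) and 3358 bp (GSK126) from the nearest TAP1 TSS. PSMB8, another immunoproteasome gene, also had an E2F1 promoter peak in DMSO and in GSK126. It is named after its values were seen, and its distance to the peaks above is not given here. Being nearest to PSMB9 does not assign a peak to PSMB9 alone.

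TAP2 had a DMSO peak at chr6:32837735-32838171 with 26 fragments (16.98 to 38.1) and a fold of 4.98. Its summit lay 373 bp downstream of the nearest TSS and 710 bp downstream of the canonical one. In GSK126 the peak was wider, at chr6:32837596-32838833, with 40 fragments (28.6 to 54.5) and a fold of 6.19, and its summit stood 13 bp upstream of the canonical TSS. Its DMSO and GSK126 summits were thus in different places within 1 overlapping region.

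At the 3 genes with a peak in both lists, the log2 ratio of the GSK126 fold to the DMSO fold was 0.92 for B2M, 0.71 for TAP1 and 0.31 for TAP2. Their median of 0.71 lay beside a median of 0.73 over the 6538 genes with a promoter peak in both lists, of which 6353 had a ratio above 0. Scaled by the lowest background of each list, the fragment numbers were 1.72 times as high in GSK126 for B2M (0.996 to 3.03), 1.77 times for TAP1 (1.06 to 2.999) and 1.65 times for TAP2 (0.980 to 2.81). The intervals for B2M and TAP2 include 1, and in log2 terms the median of 0.78 stood beside 0.77 over all genes. Both class I medians thus lay close to those of the whole list. At TAP1 and TAP2 the summits stood at different places in DMSO and GSK126, so the ratios of these genes compare different positions.

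**Figure D2:**
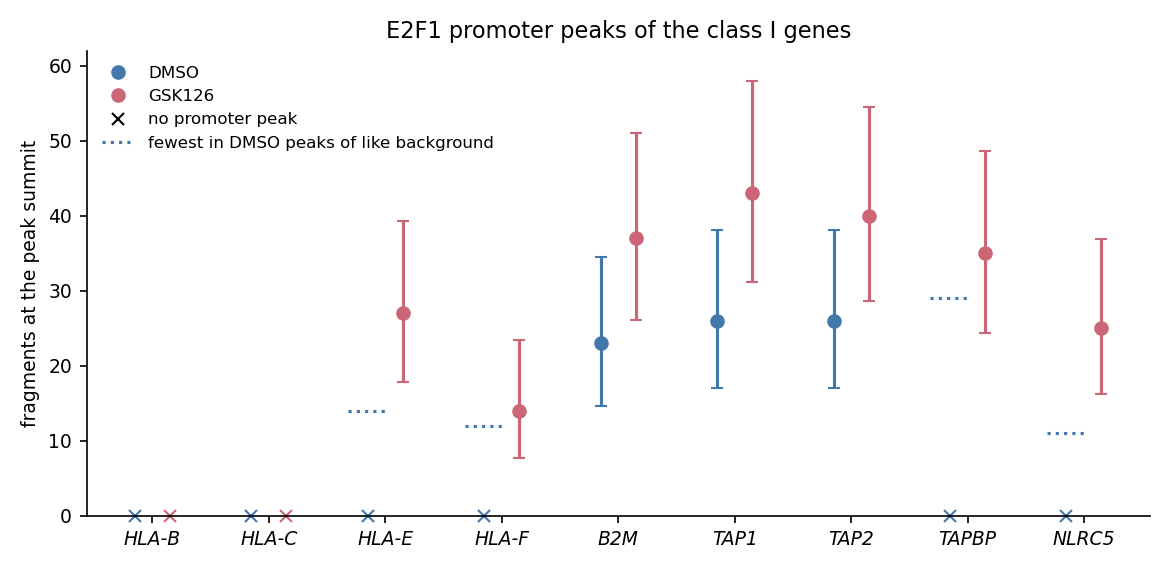
Fragments at the summit of the strongest E2F1 promoter peak (vertical axis) of each class I gene (horizontal axis) in DMSO and GSK126, with exact Poisson 95% intervals as bars. Crosses mark genes without a promoter peak, and dotted lines mark the fewest fragments of any DMSO peak whose background was within 10% of that of the gene's GSK126 peak. HLA-E, B2M, TAP1, TAP2, TAPBP and NLRC5 had 25 or more fragments in GSK126, and HLA-F had 14.

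Among the genes with a GSK126 peak alone, NLRC5 had the highest fold. Its peak at chr16:56989368-56989712 had 25 fragments (16.2 to 36.9) over a background of 2.74, fold 6.95 and −log10 q 13.3, and the summit stood 3 bp downstream of the canonical TSS in a UTR exon. DMSO peaks at a like background had as few as 11 fragments. HLA-E had 27 fragments (17.8 to 39.3) in GSK126 at chr6:30489502-30490360, with a fold of 5.07, where DMSO peaks of like background began at 14. Its summit was 632 bp downstream of the nearest TSS, the farthest of any class I promoter peak from a start site.

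The other GSK126-only peaks had the lowest folds of the class I genes. HLA-F had 14 fragments (7.65 to 23.5) at chr6:29723643-29723924, with a fold of 3.73, a −log10 q of 3.53 and a summit in a coding exon 295 bp downstream of the canonical TSS, and DMSO peaks of like background began at 12. TAPBP had 35 fragments (24.4 to 48.7) at chr6:33313430-33314196 over a high background of 11.8, with a fold of 2.82, and DMSO peaks of like background began at 29. All 4 genes were picked out by a peak in GSK126, where fragment numbers were also higher over the list as a whole, so these limits do not show whether E2F1 signal differed between DMSO and GSK126 at any of them. The fold of TAPBP was at percentile 0.644 of all GSK126 promoter peaks.

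HLA-B and HLA-C had no E2F1 peak within 30 kb of any TSS in the 3 lists. A peak within 30 kb was present for 51.6% of all genes in DMSO and 68.1% in GSK126. Repeated sequence was examined at these promoters because the HLA genes resemble each other. A stretch of 100 bases of the promoter windows recurred exactly elsewhere on the main chromosomes for 0% of positions in HLA-B, 0.0916% in HLA-C and 1.20% in HLA-F, and no stretch of 150 bases recurred in any of the 9 genes. H3K27me3 regions were listed within 30 kb of both genes in both H3K27me3 libraries, 12 and 11 for HLA-B and 11 and 13 for HLA-C in control shRNA and shE2F1. The search covered exact repeats in the reference only, and differences of the line's own sequence from the reference were not examined. The part of sequence likeness in the missing E2F1 peaks was not tested further.

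E2F sites were then searched at the summits. A site of the 4 spellings given above was found, on either strand, within 100 bp of 0 of the 7 class I summits in GSK126, where 30.9% of all 9786 promoter summits of the list had one. Restricted to the 6457 promoter summits with a fold between 2.82 and 9.34, the range of the class I peaks, the share was 23.3% (22.2% to 24.3%). The interval for 0 of 7 reaches 41.0%, so both shares lie within it. Within 200 bp, where 39.3% of all promoter summits had a site, 1 of the 7 did, 130 bp from the summit of TAP2 at chr6:32838611-32838633 and in an intron, shown here on the minus strand with the motif in capitals.
TAP2: aacctggaGCGCCAAcagggacg

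H3K27me3 at the promoters was found, by the same distance rule, at HLA-F alone. The control shRNA list held a peak at chr6:29723387-29724741 with fold 2.86 and −log10 q 1.57, and the shE2F1 list held one at chr6:29723782-29724409 with fold 3.04 and −log10 q 1.98. That is 1 of 9 genes in each list, beside 23.2% of all genes in control shRNA and 46.5% in shE2F1, and 1 of 9 in both, beside 19.6%. A promoter peak was gained after shE2F1 at 0 of the 9 genes (0% to 33.6%), beside 26.8% of all genes, and lost at 0 of 9, beside 3.59%. The choice of the 9 genes drew on this contrast, and those on chromosome 6 are neighbours, so nothing is read from these gains and losses. Both HLA-F peaks fell below a −log10 q of 2. Within 2000 bp of a TSS, HLA-B and HLA-C also had a control peak and HLA-B a shE2F1 peak, which made 3 of 9 genes in control, beside 28.7% of all genes, and 2 of 9 in shE2F1, beside 52.4%.

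H3K27me3 after shE2F1 was also compared with E2F1 under GSK126, which come from differently treated cells. Of the 7 class I genes with a GSK126 promoter peak, 1 (HLA-F) had that peak overlapped by a shE2F1 H3K27me3 region, where 55.2% of the 10279 genes with such a peak did, a value inside the interval for 1 of 7 (0.361% to 57.9%). Of the 6 genes with a GSK126 peak and no control H3K27me3 at the promoter (HLA-E, B2M, TAP1, TAP2, TAPBP and NLRC5), 0 had H3K27me3 there after shE2F1 (0% to 45.9%). The share over all 8332 genes of that kind was 49.2% (48.1% to 50.2%). The genes on chromosome 6 are neighbours rather than independent, and the choice of the 9 genes drew on this H3K27me3 contrast, so nothing is read from the gap.

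Around the promoters the 4 heavy chain genes lay in broad H3K27me3, TAP1, TAP2 and TAPBP had less of it but more than the median gene, and B2M and NLRC5 had none in control shRNA. Role and position cannot be told apart here, since the heavy chain genes lie together on chromosome 6, TAP1, TAP2 and TAPBP lie together farther along it, and B2M and NLRC5 are on other chromosomes. Within 30 kb of any TSS, control peaks covered 27.6% of bases at HLA-B, 33.9% at HLA-C, 20.1% at HLA-E and 31.4% at HLA-F, which placed these genes at percentiles 93.8, 95.8, 90.3 and 95.04 of all protein-coding genes. At HLA-E every region of both lists lay upstream of the gene. The nearest was centred 13457 bp from the TSS in control shRNA and 8558 bp in shE2F1. TAP1 had 5.45%, TAP2 4.80% and TAPBP 2.92%, at percentiles 72.3, 70.5 and 64.1. B2M and NLRC5 had 0%. The median over all genes was 0.789%.

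After shE2F1 the covered length was 18.5 kb at HLA-B, against 19.7 kb in control, 19.2 kb against 21.2 kb at HLA-C and 17.7 kb against 19.7 kb at HLA-F, whereas HLA-E had 12.1 kb in both. TAP1 had 3.08 kb against 3.57 kb, TAP2 1.77 kb against 3.26 kb and TAPBP 1.83 kb against 2.04 kb. B2M gained a single region of 0.267 kb in an intron of PATL2, with a fold of 2.73, and NLRC5 had none in either list. Over the merged windows of the 9 genes the covered length was 80.2 kb in control and 73.5 kb in shE2F1, a log2 ratio of −0.12, and the mean fold over those bases was 3.53 and 3.26. Over all protein-coding genes the log2 ratio was 0.30, with mean folds of 3.28 and 3.09, and 66.1% of genes had more covered bases after shE2F1. Within 10 kb of a TSS the ratio for the class I genes was 0.14, so its direction depended on the window. The ratio over all genes within 10 kb is not given here.

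**Figure D3:**
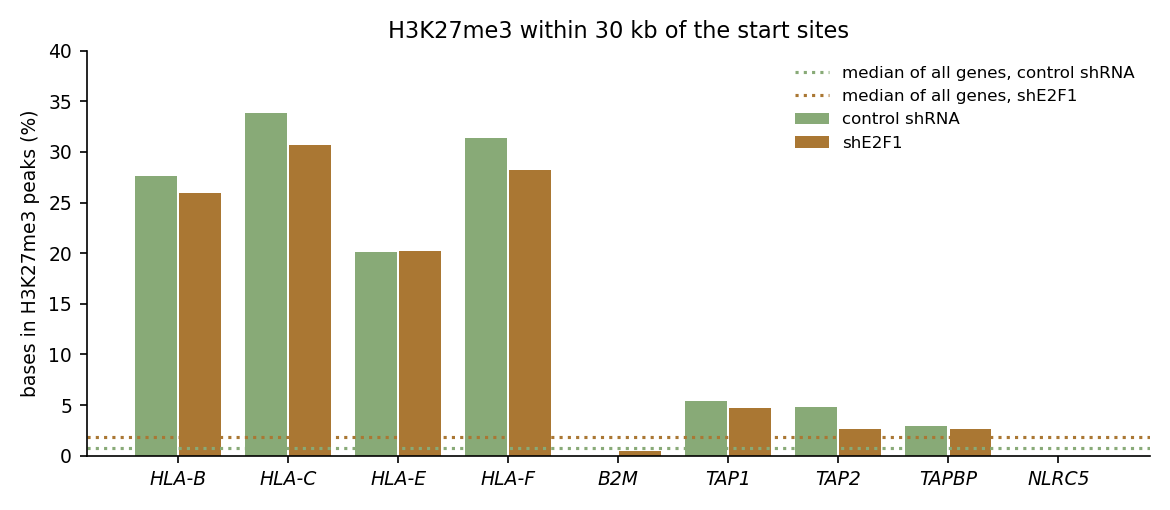
Percent of bases in H3K27me3 peaks within 30 kb of any TSS (vertical axis) for each class I gene (horizontal axis) in control shRNA and shE2F1, with the medians of all protein-coding genes as dotted lines. The bars of HLA-B, HLA-C, HLA-E and HLA-F stand between 20.1% and 33.9%, and those of the other 5 genes at or below 5.45%.

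By region, 14 of the 56 shE2F1 regions within 30 kb of the 9 genes had no control overlap (25%), beside 43.5% of all shE2F1 regions. Of the 50 control regions, 9 had no shE2F1 overlap (18.0%), beside 32.5% of all control regions. With an overlap of 50% of the region required, 17 control regions counted as lost and 19 shE2F1 regions as gained. The shares over all regions under that rule are not given here. These counts use the contrast on which the genes were chosen, and regions of 1 domain are not independent of each other, so nothing is read from them.

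Upstream of HLA-C 2 control regions had no shE2F1 overlap, and which of them entered the choice of these genes is not stated. The farther one lay between genes at chr6:31292368-31292613, 20360 bp upstream of HLA-C. In control shRNA it had fold 5.90 and −log10 q 5.91, the highest fold of the 11 control regions near HLA-C. It is shown as the stronger of the pair. Its 246 bases are 45.1% G or C, with 1 CpG and no E2F site, and are written on the plus strand.
HLA-C upstream region: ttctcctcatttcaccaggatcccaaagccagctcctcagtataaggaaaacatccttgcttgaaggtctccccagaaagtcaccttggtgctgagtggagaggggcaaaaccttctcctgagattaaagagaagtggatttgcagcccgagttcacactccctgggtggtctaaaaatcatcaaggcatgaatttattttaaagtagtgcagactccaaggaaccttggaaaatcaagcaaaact

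The other of the pair lay nearer to HLA-C, at chr6:31273027-31273270, with fold 3.90 and −log10 q 3.05. Its midpoint was 1018 bp upstream of the nearest TSS, just outside the 1000 bp limit, and it is the HLA-C promoter peak that wider definitions count as lost. In the opposite direction, shE2F1 regions without a control overlap lay 4891 bp downstream of the nearest HLA-C TSS, at chr6:31264144-31265407 with a fold of 3.78, and 6378 bp upstream, at chr6:31278353-31278664 with a fold of 3.03. Of the peaks near the 30 kb limit, the farthest counted was 28621 bp and the nearest not counted 30098 bp from a TSS, both in control shRNA and both also overlapped by a shE2F1 region.

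**Figure D4:**
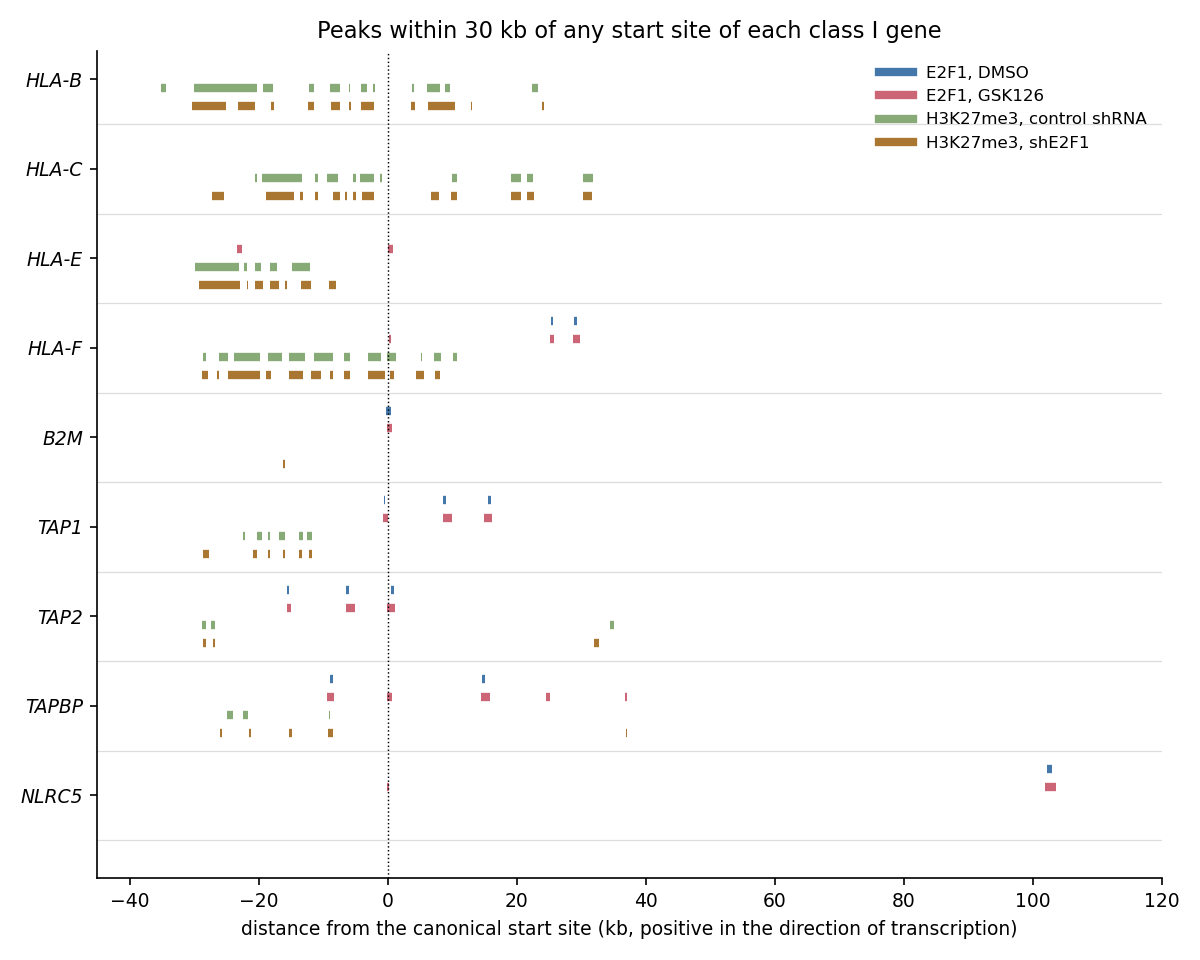
Peaks within 30 kb of any TSS of each class I gene (rows), drawn to scale by distance from the canonical TSS in kb (horizontal axis), with 1 lane each for E2F1 in DMSO and GSK126 and for H3K27me3 in control shRNA and shE2F1. HLA-B and HLA-C have H3K27me3 on both sides and no E2F1 peak, and NLRC5 has E2F1 peaks and no H3K27me3.

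Within 30 kb of TAPBP, peaks also lay at the starts of neighbouring genes. At the start of DAXX, a histone chaperone gene, the shE2F1 H3K27me3 region at chr6:33322636-33323272 had fold 6.07 and −log10 q 19.4, where the overlapping control region at chr6:33322996-33323207 had fold 3.23 and −log10 q 3.10. E2F1 peaks of fold 4.55 in DMSO and 3.59 in GSK126 lay on the same promoter. At B3GALT4, an shE2F1 region with a fold of 2.91 at chr6:33276965-33277168 had no control overlap and lay inside a GSK126 E2F1 peak with a fold of 5.31, and another, with a fold of 2.84, lay at SMIM40. RGL2 had E2F1 peaks of fold 6.10 in DMSO and 9.15 in GSK126, and PFDN6 one of fold 3.08 in GSK126. Near NLRC5 the remaining E2F1 peak, of fold 7.77 in both lists, was at CPNE2.

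The other genes of the pathway were counted in the same way. Of 17 other genes of class I processing and its regulators, 2 (11.8%) had an untreated E2F1 promoter peak. In DMSO 13 (76.5%) had one, and in GSK126 14 (82.4%) did. Over all protein-coding genes the shares were 5.85%, 33.5% and 51.5%. The untreated peaks were at CANX, a chaperone of newly made heavy chains, and at IRF1, a transcription factor of the interferon response. PSMB9, whose promoter shares the window of TAP1, had a peak in DMSO and in GSK126, and PSME1, named after its values were seen, had 1 in GSK126 alone. In H3K27me3, 1 of the 17 (RFXANK) had a control promoter peak and 6 a shE2F1 peak, with 5 gained (29.4%, 10.3% to 56.0%) and 0 lost. Over all genes the shares were 23.2% with a control peak, 46.5% with a shE2F1 peak, 26.8% gained and 3.59% lost. The gained ones included CANX, IRF1, the peptidase gene ERAP1 and the disulfide isomerase gene PDIA3, named after their values were seen. Of 9 class II genes, which present peptides from outside the cell, 0 had an untreated E2F1 peak. In DMSO 1 (11.1%) had a peak, at CIITA, the class II transactivator. In GSK126 2 (22.2%) did, CIITA and HLA-DMA. In H3K27me3, 3 class II genes (HLA-DPA1, HLA-DPB1 and HLA-DOA) had a control peak and 5 a shE2F1 peak, with 2 gained (HLA-DMA and HLA-DMB) and 0 lost, again named after their values were seen. The stretch of chromosome 6 between HLA-F and TAPBP, 3.59 Mb, holds 142 other protein-coding genes. Of these, 17 (12%), 53 (37.3%) and 70 (49.3%) had an E2F1 promoter peak in untreated, DMSO and GSK126. An H3K27me3 promoter peak was gained at 32. The 0 of 9 gains of the class I genes thus stood beside 22.5% of their chromosome 6 neighbours (16.0% to 30.3%). Nothing is read from this difference, because the choice of the 9 genes drew on the same contrast.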

How the data were processed

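Chromatin from MDA-MB-231 cells was immunoprecipitated for E2F1 (3 libraries) or H3K27me3 (2 libraries), and the input sample was not analysed here. Per the study's methods and the submitters' processing notes, the authors checked 150-bp paired-end reads with FastQC (0.11.5), trimmed them with cutadapt (4.5), filtered them with Picard and SAMtools, aligned them to GRCh38 with Bowtie2 (2.5.2) and ran MACS2 (2.2.9.1) on every library, in broad mode for H3K27me3. Which control library each call used is not given in the sources used here.

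The deposited fold enrichment is a ratio of signal to background, taken at the summit for narrow peaks and as a mean over the region for broad peaks. The deposited −log10 p and −log10 q values of each peak were used as given. The score column deposited by the authors was not used. The summit offset deposited for narrow peaks placed the summit, and the midpoint stood in for it in broad peaks. All 5 lists lay within the chromosomes of the hg38 reference.

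Fragments and background at each narrow summit were solved from fold, (fragments + 1)/(background + 1), and the Poisson p-value, to a relative tolerance of 2e-05, and a whole number resulted for 100% of the E2F1 peaks. The solver was checked on simulated peaks. Peaks were assigned to GENCODE 44 TSSs within 1000 bp, and to genes within 30 kb. An H3K27me3 region was gained or lost when no region of the other list overlapped it by 1 bp. Shares carry Clopper-Pearson and fragments Poisson 95% intervals. The 250 bases before each start were aligned globally with scores of 1 for a match, −1 for a mismatch and −2 for a gap. Python 3.11.15, numpy 2.4.6, scipy 1.17.1, pysam 0.24.0 and matplotlib 3.10.9 were used.

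The 9 genes and the lists of 17 other class I and 9 class II genes were chosen with earlier results of these data known. All 9 genes are named. Of the other lists, genes are named by rule where they have an untreated E2F1 peak, a lost H3K27me3 promoter peak or a promoter within a class I window, and neighbours where theirs is the TSS nearest to a peak within 30 kb. All further genes named from these lists were chosen after their values were seen. Distances, overlap, TSS types, peak thresholds and motif windows were varied as alternatives. Because each condition has 1 library, no test between conditions was made.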

Additional observations from a re-analysis of the deposited data

How the results depend on the processing

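The counts of class I genes with an E2F1 promoter peak were within 1.5 times the reported count under promoters of 500 and 2000 bp, any overlap, TSSs of protein-coding transcripts only, and stricter peaks (−log10 q of at least 5 for E2F1 and 2 for H3K27me3). GSK126 gave 6 genes at 500 bp, without HLA-E, beside 48.3% of all genes. With stricter peaks it gave 6, without HLA-F, beside 48.6% of all genes. In both cases 3 genes had a peak in GSK126 and none in DMSO. H3K27me3 promoter counts moved more. With 2000 bp or any overlap, 3 genes had a control peak, 2 an shE2F1 peak and 1 (HLA-C) a lost peak. Of all genes, 28.7% (2000 bp) and 27.1% (any overlap) had a control peak, and 52.4% and 51.2% an shE2F1 peak. With stricter peaks 0 had a control and 0 an shE2F1 peak, beside 11.8% and 26.1% of all genes. Stricter peaks also left 0 GSK126 peaks overlapped by shE2F1 H3K27me3. The log2 ratio of covered length was −0.44 with stricter peaks and reversed to 0.14 within 10 kb of a TSS. The cause of the reversal was not tested. The ratios over all genes under these settings are not given here, so neither value can be set against the whole list. Counting only overlaps of 50% of a region as shared raised the lost regions from 9 to 17 and the gained regions from 14 to 19. The stricter definition leaves fewer shared regions. Within 200 bp of the summit 1 class I gene (TAP2) had an E2F site, beside 39.3% of all promoter summits. No paired analysis was possible because each group has 1 library and the results come from no test.

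Each value rests on 1 library per condition, so a treatment and its library cannot be told apart. Peak lists show where a caller's threshold was passed, and say nothing of signal below it. The E2F1 lists reached as few as 9 fragments per peak in DMSO and GSK126 and 7 in untreated cells. The depth of the H3K27me3 libraries is unknown here, because broad peaks hold averages.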
